A study of Mus musculus with 12 samples.

Results

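The part of the transcriptome described here is a set of 10 transcription regulators of the Schwann cell and neural crest lineage, namely Sox10, Egr2, Pou3f1, Pou3f2, Foxd3, Sox2, Tfap2a, Pax3, Zeb2 and Nab2. They were chosen by name, with earlier results of these data known. All 10 were among the 47480 gene symbols of the deposited count table. RNA sequencing was done on mouse trigeminal nerve, the large sensory nerve of the face. The 6 normal nerve samples were Nf1 flox/flox without PostnCre, and the 6 plexiform neurofibroma samples were Nf1 flox/flox with PostnCre. Floxed Nf1 was thus shared by every sample, while the Cre recombinase, named for Postn, and the tumour state came together and cannot be told apart. Cre under Postn control is known from neurofibroma models as active in the Schwann cell lineage. The labels state no age, sex, strain or batch and do not say that samples came from separate animals, so p-values measure the spread between these samples, which may be technical.

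Schwann cells, the glia that ensheathe and myelinate peripheral axons, descend from neural crest through precursor and immature stages. Sox10 is needed at every stage. Foxd3, Tfap2a, Pax3 and Sox2 belong to crest, precursor and immature cells, and Sox2 and Pax3 are known to hold back myelination. The POU factors Pou3f1 (Oct6) and Pou3f2 (Brn2) act with Sox10 to switch on Egr2 (Krox20), the main activator of myelin genes, and Egr2 works together with its cofactor Nab2. Zeb2 promotes myelination by repressing inhibitors such as Sox2, Ednrb and Hey2. Accordingly, Foxd3, Sox2, Tfap2a and Pax3 were treated as early regulators and Pou3f1, Pou3f2, Egr2, Nab2 and Zeb2 as myelination regulators, with Sox10 placed in neither.

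Libraries held 14160025 to 19989351 counts. Levels are given as CPM, the counts scaled to library size with TMM factors, and changes as plexiform neurofibroma over normal nerve from a quasi-likelihood test in edgeR over 17236 genes, called at a Benjamini-Hochberg adjusted p under 0.05. The label check gave Nf1 at 131 CPM ± 35.8 in normal nerve and 83.8 ± 8.13 in tumours (SD, n = 6 each, edgeR adjusted p = 0.0179). Postn, whose name the Cre carries, rose 6.37-fold from 22.1 to 140.5 CPM (edgeR adjusted p = 0.00083). This is the level of Postn RNA, and it does not show whether the Cre was present. The summed CPM of 6 Schwann cell markers ran from 2722 to 6690 in normal nerve and from 6849 to 11780 in tumours, so the tissue held Schwann cell RNA in each library and more of it in each tumour. In bulk samples, more Schwann cells and more RNA per Schwann cell cannot be told apart. Normal nerve replicate 6 stood apart: its median distance to the other normal libraries was 0.921 log2 against at most 0.648 for the rest. It held 1223 CPM of 4 summed astrocyte markers and 1087 CPM of 6 markers of oligodendrocytes and their precursors, against at most 183 and 313 in the other normal libraries.

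The windows upstream of 4 regulators are shown and were searched for known regulator motifs. Each window is the 250 bases before a RefSeq start site on GRCm38.p6, free of annotated exons, and capitals mark motif matches found on either strand. RefSeq's table held 15 start sites for 7 of the 10 genes. Egr2 lies on the plus strand of chromosome 10, and the window of its start site 3 is chr10:67537619-67537868. Foxd3 (chr4:99656049-99656298) and Sox2 (chr3:34649745-34649994) are on the plus strand, and Pou3f2 (chr4:22488367-22488616) is on the minus strand.
Egr2: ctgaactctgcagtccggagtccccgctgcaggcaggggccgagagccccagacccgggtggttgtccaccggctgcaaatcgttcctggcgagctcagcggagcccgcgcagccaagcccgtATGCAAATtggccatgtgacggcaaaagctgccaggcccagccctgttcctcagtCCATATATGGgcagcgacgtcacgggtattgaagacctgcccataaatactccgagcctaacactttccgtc
Foxd3: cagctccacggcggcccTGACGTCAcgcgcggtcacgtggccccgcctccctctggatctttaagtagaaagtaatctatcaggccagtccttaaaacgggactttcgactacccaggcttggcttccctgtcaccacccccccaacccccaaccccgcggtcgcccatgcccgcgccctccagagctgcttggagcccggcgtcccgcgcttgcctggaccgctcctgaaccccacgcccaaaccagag
Sox2: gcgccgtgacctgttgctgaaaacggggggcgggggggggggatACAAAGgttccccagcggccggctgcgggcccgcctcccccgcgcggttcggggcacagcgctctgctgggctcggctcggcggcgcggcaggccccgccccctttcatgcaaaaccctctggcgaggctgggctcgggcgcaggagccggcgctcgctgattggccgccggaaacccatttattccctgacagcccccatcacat
Pou3f2: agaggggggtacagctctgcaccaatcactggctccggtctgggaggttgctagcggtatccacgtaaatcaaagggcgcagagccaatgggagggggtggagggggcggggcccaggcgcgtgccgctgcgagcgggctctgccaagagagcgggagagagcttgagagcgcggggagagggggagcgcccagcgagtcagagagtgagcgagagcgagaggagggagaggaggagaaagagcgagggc
The Egr2 window holds the POU octamer ATGCAAAT at positions -127 to -120 and a serum response element at -72 to -63, counted back from the start site. Of 32851 start sites in the table, 1.6% had that octamer and 0.07% had that element in the same window. The Foxd3 window holds the cAMP response element TGACGTCA, which 1.55% of windows had, and the Sox2 window holds the SOX core ACAAAG, which 16.5% had. Start site 3 of Egr2 is shown because its window has no exon and holds matches; start site 2 of Egr2 and start site 1 of Zeb2, also without exons, held none and are not printed. The Pou3f2 window held none of the 7 motifs searched. The other motifs were the EGR site GCGNGGGCG (4.7% of windows), the ZEB E-box CACCTG (17.2%) and the AP-1 site TGANTCA (6.75%). At a further start site of Zeb2, not printed because the window holds a Zeb2 exon, there were 1 SOX core and 2 AP-1 sites. The octamer and the serum response element were added to the search after the sequences had been read. A match describes letters in a window and no binding was measured.

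In plexiform neurofibroma, 5 of the 10 regulators rose, none fell and 5 were not called, beside 10.0% of all 17236 tested genes called higher, 8.63% called lower and 18.7% called in either direction. Those that rose were Foxd3, Nab2, Pou3f2, Zeb2 and Sox10, by 2.3-fold, 1.92-fold, 1.83-fold, 1.81-fold and 1.68-fold. They come from both classes and from Sox10 itself. The log2 fold change was above 0 for 9 of 10, and 8 of 10 had an unadjusted p under 0.05 (edgeR). The matching shares over all tested genes are not given here, so neither count can be set against them. The median over the 10 was 0.78 log2, and that over all tested genes was -0.02 log2. All 10 passed the filter on low counts. In 3 genes every tumour lay above every normal library, against 4.40% of tested genes, and in none did every tumour lie below, against 2.99%.

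**Figure D1:**
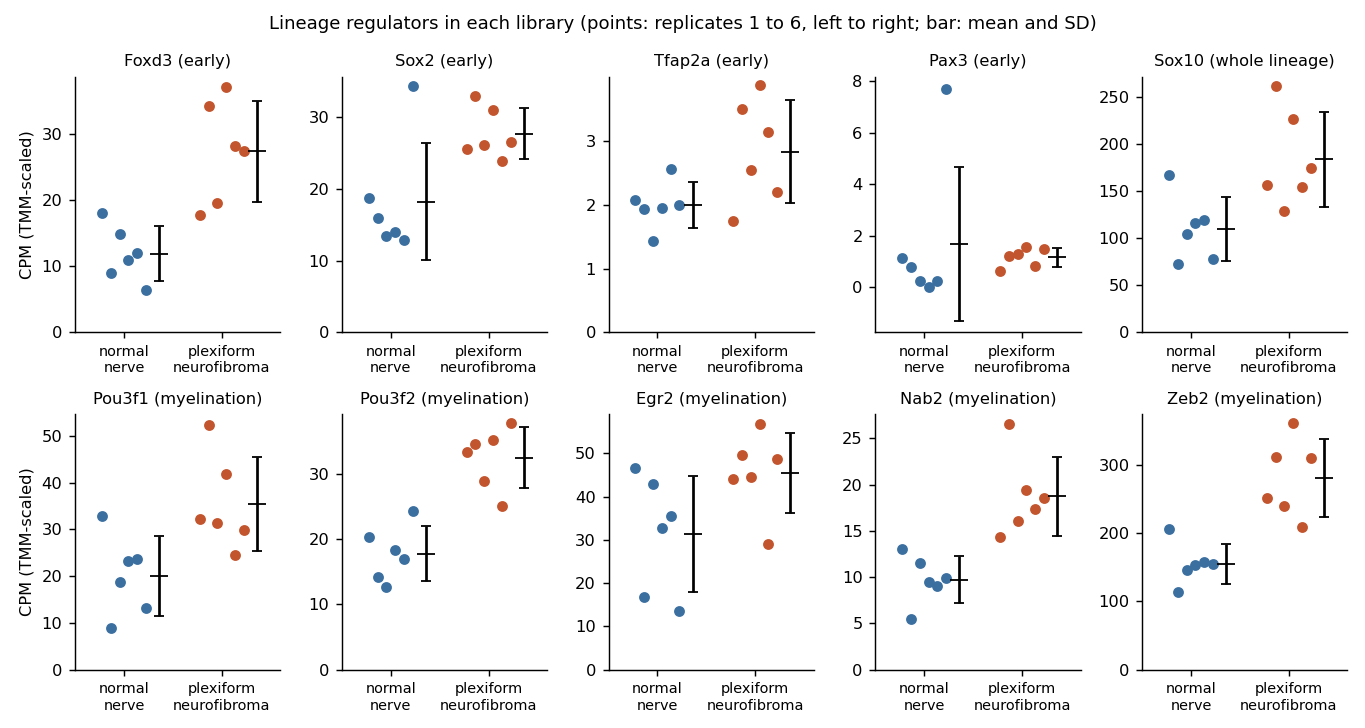
CPM of each regulator on a linear axis, with 1 point per library (6 normal nerve, 6 plexiform neurofibroma) and the mean and SD at the right of each group. The groups are separate for Pou3f2, Nab2 and Zeb2, and normal replicate 6 is the highest normal library for Sox2, Pax3 and Pou3f2.

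Sox10 (chromosome 15, 79154908 to 79165240, minus strand, GRCm38), the factor that defines the lineage, ran from 72.5 CPM through a median of 110.1 to 167.2 in normal nerve and from 128.8 through 165.0 to 261.1 in tumours. All 6 tumours lay above the normal median, but normal replicate 1 exceeded 3 of the tumours, so the groups overlapped. The mean rose from 109 ± 34.2 to 183 ± 50.1 CPM, a 1.68-fold change (SD, n = 6 each, 95% interval 1.21 to 2.32, edgeR adjusted p = 0.0324). The call was lost without any 1 of normal replicates 2 to 5 and of tumour replicates 2, 4 and 6, where the log2 fold change stayed between 0.62 and 0.77 (highest edgeR adjusted p = 0.0772).

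Among the early regulators, Foxd3 rose and Sox2, Tfap2a and Pax3 were not called. Foxd3 (chromosome 4, 99656299 to 99658622, a single exon), a forkhead repressor of neural crest and of Schwann cell precursors, showed the largest change of the 10 genes. It ran from 6.37 CPM through 11.45 to 18.0 in normal nerve and from 17.8 through 27.8 to 37.0 in tumours. The groups touched at 1 point, where tumour replicate 1 fell just below normal replicate 1. The 2.3-fold change (95% interval 1.59 to 3.34, edgeR adjusted p = 0.00758) was called whichever single library was left out.

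Sox2 (chromosome 3, 34650405 to 34652461, a single exon), an SRY-related factor of immature and injured Schwann cells, ran from 12.9 CPM through 14.95 to 34.3 in normal nerve and from 23.9 through 26.3 to 32.9 in tumours. In 5 of 6 normal libraries it was below every tumour, and in normal replicate 6 it was above every tumour. The change was 1.52-fold (95% interval 1.09 to 2.11, edgeR adjusted p = 0.07). Without normal replicate 6 it was 1.84-fold and called (edgeR adjusted p = 0.000603). With all 12 libraries Sox2 was called by DESeq2 (adjusted p = 0.031) and by limma-voom with sample weights (adjusted p = 0.000652). That library had the astrocyte and oligodendrocyte marker levels given above, and central glia also express Sox2; their part in the value was not tested. Sox2 lies wholly within Sox2ot on the same strand, a long noncoding RNA at 25.8 CPM in normal nerve and 35.4 in tumours (1.37-fold, edgeR adjusted p = 0.175).

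Tfap2a (chromosome 13, 40715302 to 40738376), the AP-2 alpha factor that marks crest and precursors and is switched off as Schwann cells mature, was scarce. It ran from 1.44 CPM through 1.97 to 2.57 in normal nerve and from 1.74 through 2.84 to 3.88 in tumours, with 3 tumours above all normal libraries. The change of 1.42-fold was not called (95% interval 1.03 to 1.96, edgeR adjusted p = 0.112). Pax3 (chromosome 1, 78101267 to 78197134), a paired-box factor of crest and immature cells, was scarcer still. It ran from 0 through 0.497 to 7.70 CPM in normal nerve and from 0.615 through 1.24 to 1.55 in tumours. Its 0 was in normal replicate 4, where 3 counts, the limit that a count of 0 allows, would be 0.209 CPM (counting error only). Its high value was in normal replicate 6, and the other 5 normal libraries did not exceed 1.12 CPM. The fold of 0.697 had a 95% interval of 0.187 to 2.61 (edgeR adjusted p = 0.704), and without normal replicate 6 the fold was 2.34 (edgeR adjusted p = 0.115). With all libraries, limma-voom with sample weights called Pax3 higher at 2.09 log2 (adjusted p = 0.032), opposite in direction to the edgeR value.

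Of the 5 myelination regulators, Pou3f2, Nab2 and Zeb2 rose with groups that did not overlap, and Pou3f1 and Egr2 were not called. Pou3f2 (chromosome 4, 22482780 to 22488366, a single exon) ran from 12.6 CPM through 17.7 to 24.4 in normal nerve and from 25.1 through 33.95 to 37.9 in tumours. It rose 1.83-fold (95% interval 1.46 to 2.29, edgeR adjusted p = 0.0037). Its relative Pou3f1 (chromosome 4, 124656807 to 124660655, a single exon), the POU factor that peaks at the promyelinating stage, ran from 8.90 CPM through 21.0 to 33.0 in normal nerve and from 24.6 through 31.8 to 52.4 in tumours. All 6 tumours lay above the normal median and 5 normal libraries lay below every tumour, while normal replicate 1 lay among the tumours. The fold of 1.76 was close to that of Pou3f2 but had a wider interval (1.15 to 2.68, edgeR adjusted p = 0.0602). It was called without normal replicate 1 (2.02-fold, edgeR adjusted p = 0.0227) and by DESeq2 (adjusted p = 0.0195).

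Egr2 (chromosome 10, 67535475 to 67542188), the zinc-finger factor that drives myelin genes, showed the smallest change of the myelination class. It ran from 13.7 CPM through 34.1 to 46.6 in normal nerve and from 29.0 through 46.6 to 56.8 in tumours. Normal nerve replicates 2 and 6, at 16.8 and 13.7 CPM, were the only 2 libraries below every tumour. The fold was 1.45 with a 95% interval of 0.95 to 2.21 (edgeR adjusted p = 0.193), so neither no change nor a 2.21-fold rise lay outside it. No alternative fit called Egr2.

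Nab2 (chromosome 10, 127660918 to 127668568), which binds EGR factors and tunes their output, ran from 5.44 CPM through 9.71 to 12.99 in normal nerve and from 14.3 through 18.0 to 26.5 in tumours. The rise was 1.92-fold (95% interval 1.44 to 2.57, edgeR adjusted p = 0.00722). On the other strand Nab2 overlaps Nemp1 over 1668 bases, the antisense gene Gm16229 over 1646 bases and Stat6 over 40 bases. No level is given for Nemp1, whose symbol is absent from the count table, or for Gm16229. Stat6 itself was at a fold of 1.03 (edgeR adjusted p = 0.839).

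Zeb2 (chromosome 2, 44983632 to 45117395), a zinc-finger repressor, was the most abundant of the myelination class. It ran from 114.0 CPM through 153.5 to 206.1 in normal nerve and from 209.0 through 280.8 to 361.2 in tumours, so that the lowest tumour lay just above the highest normal library. The rise was 1.81-fold (95% interval 1.44 to 2.26, edgeR adjusted p = 0.00392). Its antisense neighbour Zeb2os, which shares 3381 bases of the locus, rose 1.75-fold from 3.39 to 5.95 CPM (edgeR adjusted p = 0.0243). Since no source states whether counting used strand, reads of such pairs cannot be told apart. Zeb2 is also expressed by macrophages, whose 6 summed markers ran from 32.6 to 144.1 CPM in normal nerve and from 102.7 to 207.0 in tumours; all 6 had a fold above 1 and 2 were called higher. Fibroblast markers, 5 in the list and 4 of them called higher, summed to 172.7 to 1171 CPM in normal nerve and 1361 to 3020 in tumours. The part of these cells in the rise of Zeb2 or Nab2 was not tested. The fit with a macrophage score described later cannot isolate it, because the macrophage markers were themselves higher on average in tumours. Pou3f2, Nab2 and Zeb2 were called whichever single library was left out.

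**Figure D2:**
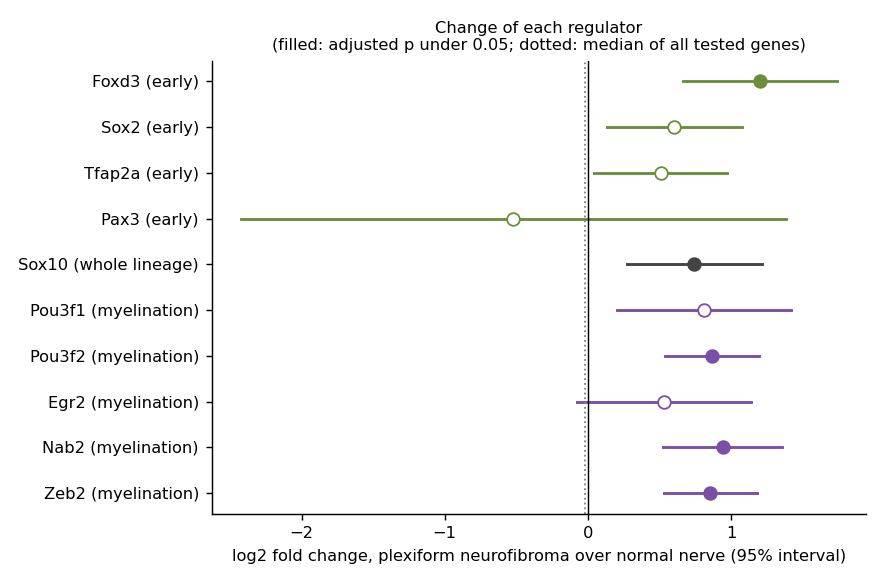
Log2 fold change of each regulator with its 95% interval, grouped as early (green), whole lineage (grey) and myelination (purple), with filled points for adjusted p under 0.05. Intervals of both classes overlap each other, Foxd3 is farthest to the right at 1.20, and the interval of Pax3 is the widest.

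Averaged over their members as log2 CPM, the early and the myelination classes were each higher in tumours, by 0.80 and 0.84 log2. In the early mean Pax3 counts as higher in tumours, since its log2 ratio to Sox10 shifted by 0.06 while Sox10 rose. Its edgeR fold was 0.697, in the other direction, and it had 4, 0 and 3 counts in normal replicates 3, 4 and 5. The median edgeR log2 fold change was 0.56 for the early and 0.85 for the myelination class. For each library, log2 CPM (with a prior count of 2) was averaged over the 5 myelination genes and over the 4 early genes, as a description with no test. The myelination mean was 4.74 ± 0.397 in normal nerve and 5.58 ± 0.262 in tumours, and the early mean was 2.03 ± 0.594 and 2.83 ± 0.319 (SD, n = 6 each). The difference between the classes was 2.71 ± 0.737 log2 in normal nerve and 2.75 ± 0.237 log2 in tumours, a shift of 0.0489 log2, far below the spread between libraries. Normal libraries ran from 1.58 in replicate 6 to 3.56 in replicate 4, and tumours ran from 2.45 to 3.15, inside the normal range. The low normal value belongs to the library with high Sox2 and Pax3, and the high one to the library where Pax3 had no count. With Tfap2a and Pax3 left out for mean levels under 5 CPM, an alternative chosen after seeing the data, the shift was -0.11 log2.

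**Figure D3:**
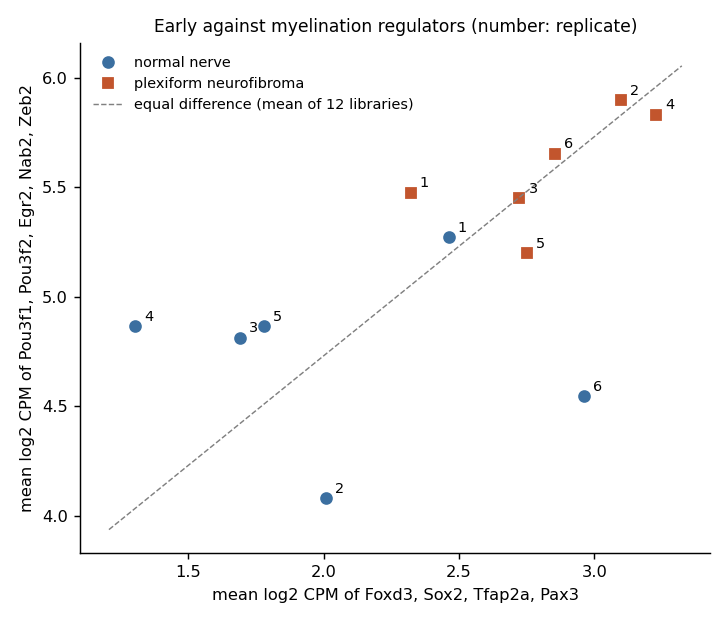
Mean log2 CPM of the 4 early regulators (x axis) and the 5 myelination regulators (y axis) in each of 12 libraries, labelled by replicate, with a dashed line of equal difference. Tumours lie toward the upper right along the line, and normal replicates 6 and 4 lie farthest from it on either side.

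Relative to Sox10 in the same library, Foxd3 was the regulator whose ratio differed most between the groups over all 12 libraries. Its log2 ratio to Sox10 averaged -3.21 ± 0.279 in normal nerve and -2.75 ± 0.242 in tumours, a shift of 0.47 log2 (SD, n = 6 each, no test), and lay between 0.39 and 0.55 with any 1 library left out. Several other shifts moved when normal replicate 6 was left out, and the values without it were added after seeing the data. The shift of Nab2 was 0.20 log2 and became 0.30 without that library, that of Pou3f2 was 0.13 and became 0.31, and that of Zeb2 was 0.09 and became 0.18. Each was within the SD of the 6 normal libraries, and each exceeded the SD of the remaining 5. For Pou3f2 and Zeb2 it was still below the tumour SD, 0.32 and 0.24 log2. Without that library 2, 3 and 4 of 6 tumours lay above the highest normal library for Nab2, Pou3f2 and Zeb2. Sox2 over Sox10 changed direction, from -0.07 to 0.22 log2. For Pou3f1 the shift was 0.13 log2 and became 0.12, for Egr2 it was -0.12 and became -0.24, and for Tfap2a it was -0.30 and became -0.21. For Pax3 it was 0.06 and became 0.84, above the 0.39 of Foxd3 there but within the normal SD of 1.385.

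The ratio of Egr2 to Sox2, a myelination factor over its opponent, also turned on that library, which had the lowest value of all 12. The shift was -0.04 log2 over all libraries and -0.45 log2 without it, where the 5 normal libraries had an SD of 0.621. The ratio of Nab2 to Egr2 shifted by 0.31 log2, within the normal SD of 0.563. Without normal replicate 6 the shift was 0.54 log2, the normal SD was 0.132, and 5 of 6 tumours lay above the 5 normal libraries. These ratios are descriptions and were not tested.

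Per length of the longest transcript, the order of levels was nearly the same in both groups. In normal nerve Sox10 led at 39.4 CPM per kb, followed by Zeb2 at 17.0, Egr2 at 10.6 and Sox2 at 8.84. Pou3f1, Foxd3, Nab2 and Pou3f2 followed at 5.23, 5.10, 3.77 and 3.19 CPM per kb, and Tfap2a and Pax3 were under 1. From Egr2 to Pou3f2, neighbours in this order differed by less than the larger of their SDs. In tumours Sox10 was at 66.0 CPM per kb, Zeb2 at 30.7, Egr2 at 15.3 and Sox2 at 13.45. Foxd3, at 11.8 CPM per kb, there stood above Pou3f1, at 9.20, a gap smaller than the SD of 3.30 for Foxd3.

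The regulators were not all highest in the same normal library. Normal nerve replicate 1 was the highest normal library for 6 genes (Sox10, Egr2, Pou3f1, Foxd3, Zeb2 and Nab2), and replicate 6 for Pou3f2, Sox2 and Pax3. Replicate 2, which had the lowest Schwann cell marker sum, was the lowest normal library for Sox10, Pou3f1, Zeb2 and Nab2. Among tumours, replicate 4 was highest for 5 genes and replicate 2 for 4, while replicate 5 was lowest for 5. The SD was 18.1% to 45% of the mean in normal nerve for the 9 genes other than Pax3, and 12.7% to 32.1% in tumours for all 10.

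Likeness to Sox10 was described by Pearson's r of log2 CPM over the 12 libraries after group means were subtracted, with no test and with library makeup and depth shared by all points. Of 11699 genes compared, Tmco4, the phosphatase gene Ptpn21 and P2rx7, an ATP-gated channel, were most like Sox10 (r = 0.97 each). Among the other regulators of at least 5 CPM r was 0.91 for Pou3f1, 0.84 for Foxd3, 0.81 for Zeb2, 0.77 for Nab2 and 0.75 for Egr2. It was 0.28 for Pou3f2 and -0.06 for Sox2. Without normal replicate 6, chosen after seeing the data, those last values were 0.66 and 0.59, and the others lay between 0.72 and 0.90. Egr2 was most like Rapsn, Syne3 and Atf7 (r = 0.95, 0.94 and 0.94). Zeb2 was most like Mylip, Cryab and Txndc16 (r = 0.96, 0.95 and 0.95). Sox2 was most like Ctbp2, Camk1 and St6galnac4 (r = 0.98, 0.97 and 0.97). These values include normal replicate 6, where Sox2 was at 34.3 CPM against at most 18.7 in the other normal libraries. They were not computed without it.

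When a score of marker genes was added to the fit as a covariate, the changes of the regulators depended on which score was used. With the mean log2 CPM of the 6 Schwann cell markers as covariate, no regulator was called and no gene in the whole table was called. The Schwann cell marker sums of the groups do not overlap, and several markers are SOX10 targets, so this fit can hardly separate marker level from group. In it the log2 fold change of Zeb2 went from 0.85 to 0.09, that of Nab2 from 0.94 to 0.14 and that of Foxd3 from 1.20 to 0.26. Pou3f2 kept 0.47 of 0.87 and Sox2 kept 0.50 of 0.61. Sox10, Egr2 and Pou3f1 were at -0.32, -0.51 and -0.46 log2 (edgeR adjusted p = 0.576, 0.692 and 0.6). With the macrophage score as covariate no regulator was called, while 53 genes of the whole table were called higher and 51 lower. All 6 macrophage markers had a fold above 1, so this fit too separates marker level from group only in part. There Foxd3 was at 0.95 log2, Pou3f2 at 0.60, Zeb2 at 0.55 and Nab2 at 0.50 (edgeR adjusted p = 0.193, 0.127, 0.151 and 0.243). With the sensory neuron score, Pou3f2, Foxd3, Sox2, Zeb2 and Nab2 were called, and Sox10 was not (0.73 log2, edgeR adjusted p = 0.0646). Foxd3 was there at 1.27 log2, Egr2 at 0.62 and Tfap2a at 0.51.

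**Figure D4:**
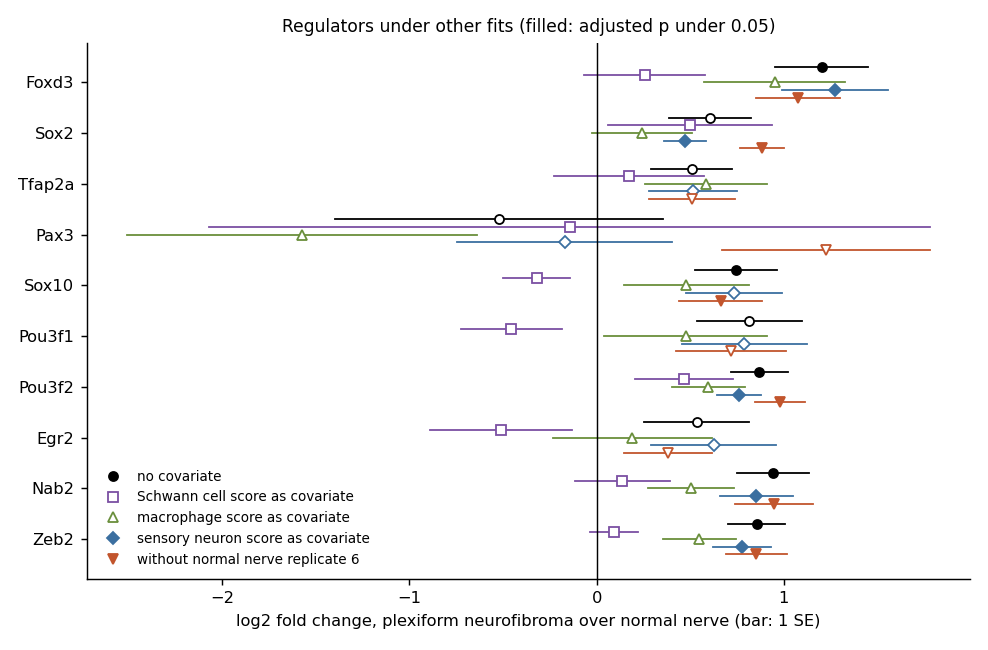
Log2 fold change of each regulator, with 1 SE, with no covariate, in fits with a marker score as covariate and without normal replicate 6, with filled points for adjusted p under 0.05. With the Schwann cell score Sox10, Egr2 and Pou3f1 lie below 0 and no point is filled, and Pax3 lies above 0 only without normal replicate 6.

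Other regulators of the lineage were read from lists chosen for their known roles, with earlier results of these data known. Counts and medians of these lists are thus descriptions and no independent support. Of 15 other neural crest regulators 10 were tested, of which 4 rose and none fell, beside 10.0% higher and 8.63% lower among all tested genes. The list median was 0.76 log2 beside -0.02 over all tested genes. Sox6, an SRY-related partner of Sox10, rose 1.99-fold from 12.8 to 25.4 CPM, and the ETS factor Ets1 rose 1.58-fold from 13.6 to 21.4 CPM. The zinc-finger repressors Snai1 and Snai2 rose 2.25-fold and 2.56-fold from low means of 1.12 and 0.545 CPM. The count was 7 without normal replicate 6 and 2 without normal replicate 5 or tumour replicate 2. The whole table moved too: genes called higher were 2544 of 17470, 1191 of 17507 and 1220 of 17471 there, against 1730 of 17236 with all libraries.

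Of 14 other regulators that oppose myelination, 3 rose and none fell (all tested genes: 10.0% higher, 8.63% lower), and the list median was 0.11 log2. Hes1, a Notch target, rose 1.82-fold from 6.90 to 12.6 CPM. Hey2, which Zeb2 represses in Schwann cells, rose 1.5-fold from 31.4 to 47.1 CPM, and Runx2 rose 1.5-fold from 4.84 to 7.26 CPM. Jun, the organiser of the repair state and chosen here after its values were seen, averaged 117 CPM in normal nerve and 102.5 in tumours (0.875-fold, edgeR adjusted p = 0.397). The groups did not overlap for Runx2 and overlapped for Hes1 and Hey2.

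Of 17 other regulators and cofactors of myelination, 4 rose and none fell (all tested genes: 10.0% higher, 8.63% lower), with a median of 0.23 log2. Rxrg, a retinoid X receptor, rose 2.12-fold from 12.9 to 27.3 CPM. Wwtr1 (TAZ) and Yap1, Hippo pathway coactivators that Schwann cells need to myelinate, rose 1.7-fold and 1.56-fold, and the deacetylase Hdac1 rose 1.33-fold. The count was 7 without normal replicate 1 and 2 without any 1 of normal replicates 4 and 5 and tumour replicates 4 and 6. Over all genes, 1772 were called higher in the first case and 1092 to 1336 in the others, against 1730 with all libraries.

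Among targets of the regulators all calls were toward higher levels. Of 10 SOX10 targets of the whole lineage 9 were tested, 4 rose and none fell (all tested genes: 10.0% higher, 8.63% lower), with a median of 0.73 log2. S100b and Cdh19, which are also in the list of Schwann cell markers, rose 1.74-fold and 1.97-fold with groups that did not overlap. Dhh, the hedgehog ligand Schwann cells send to the nerve sheath, rose 2.12-fold from 60.2 ± 28.0 to 127.7 ± 30.1 CPM, and the gap junction gene Gjc3 rose 1.69-fold (n = 6 each, SD; adjusted p = 0.0246 and 0.00559, edgeR). Of 12 EGR2 targets of myelin 5 rose and none fell, beside the same 10.0% and 8.63% of all tested genes, with a median of 0.65 log2. Egr2 itself was not called. Ncmap, a protein of noncompact myelin, rose 1.94-fold, Mal rose 1.57-fold, and the myelin gene Pmp22 rose 2.38-fold with groups that did not overlap. This count ran from 2 without normal replicates 3 or 4 or tumour replicate 6 to 9 without normal replicate 1. It was 3 without any 1 of normal replicate 5 and tumour replicates 2 and 4. Over all genes, 1772 were called higher without normal replicate 1 and 1092 to 1559 without the others named, against 1730 with all libraries.

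Of 13 genes of immature and non-myelinating Schwann cells 11 were tested, with 2 higher, 1 lower and a median of 0.07 log2. Both counts were near what the shares of all tested genes, 10.0% higher and 8.63% lower, would give. Ednrb, the endothelin receptor of precursors that Zeb2 represses, rose 1.53-fold from 113.9 to 173.8 CPM, and the growth factor Btc rose 2.43-fold from 0.821 to 2.02 CPM. Cdh2, the N-cadherin of immature cells, fell to 0.813 of the normal level, a call that was lost without any 1 of normal replicates 2, 4 and 5 and tumour replicates 1, 2 and 6. Without normal replicate 6, 4 members were higher, beside 2544 of all 17470 genes tested there. No difference between lists was tested.

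**Figure D5:**
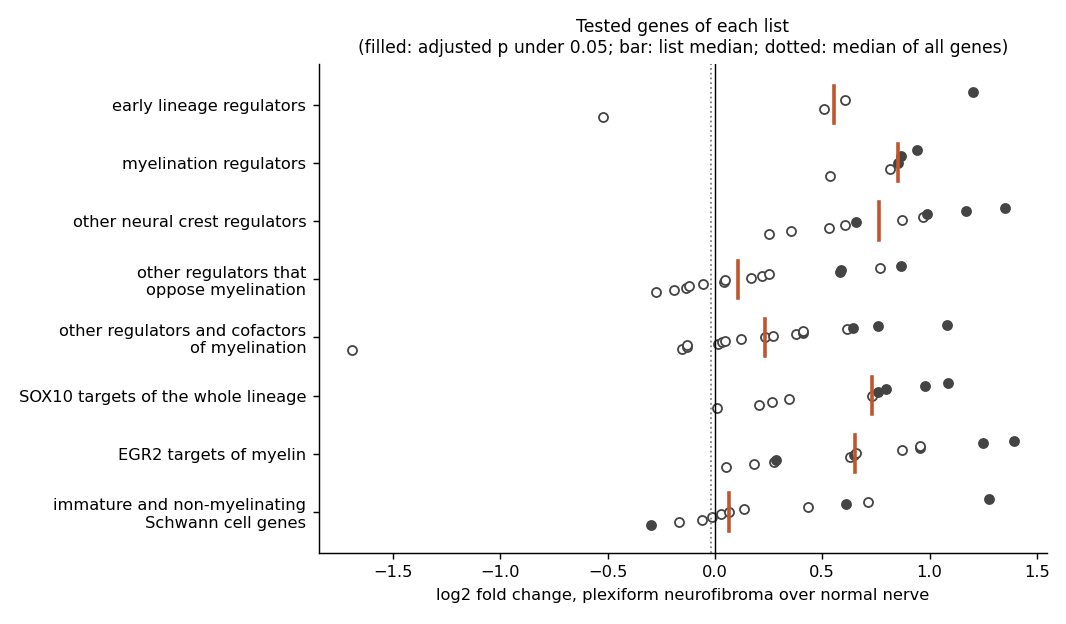
Log2 fold change of every tested gene in each list, with filled points for adjusted p under 0.05, a bar at the list median and a dotted line at the median of all tested genes. Medians lie at 0.56 to 0.85 for the 2 regulator classes, the other neural crest regulators and the SOX10 and EGR2 targets, and at 0.07 to 0.23 for the other 3 lists.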

How the data were processed

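RNA from 12 trigeminal nerve samples was sequenced as polyA libraries. The labels name 2 library kits, and whether these divide the samples or the groups is not reported here. The tools named, per the submitters' processing notes, are DESeq2, Salmon 0.60, STAR 2.4.2a and FastQC, and the build is mm10; no roles are stated. The authors deposited expected counts per gene symbol, not normalized, of which 84.1% to 86.5% per library were whole within 0.001. Neither annotation nor strand setting is given in the sources used here. Columns were mapped to samples by title, and groups by the labelled tumour stage.

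Counts were rounded and filtered with filterByExpr, which left 17236 genes. The test was edgeR 4.0.16 (quasi-likelihood, TMM, robust, no covariate) in R 4.3.3 with Benjamini-Hochberg adjustment, tested on simulated data. CPM use TMM factors. Alternatives were upper-quartile and RLE factors, no filter, CPM above 1 in 6 libraries, DESeq2 1.42.0, limma-voom (limma 3.58.1) with sample weights, 3 marker score covariates, a transcript length correction (lowess span 0.3) and leaving out each library. Coordinates and lengths are from GENCODE vM21 on GRCm38, the assembly of mm10, matched by 45187 symbols; upstream sequences are from RefSeq.

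The regulators and lists were chosen with earlier results of these data known. The text names all 10 regulators, Nf1 as a label check and Postn for the name of the Cre. It also names up to 6 called members per list in order of p-value and Jun (chosen after its values were seen). The 3 genes of at least 5 CPM most like Sox10, Egr2, Sox2 and Zeb2 are named too, placeholder symbols aside. Overlapping neighbours were named from the annotation. Some called list members are not reported here by name.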

Additional observations from a re-analysis of the deposited data

Results flagged for a closer look

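Of 22 sets of 6 libraries checked (10 regulators and the class difference, in each group), 2 held a library far from the rest, and chance alone gives about 1 in 20 sets. Sox2 was at 34.32 CPM in normal replicate 6, a gap of 0.731 of the group's range. Pax3 was at 7.701 CPM in the same library, a gap of 0.855 of the range. Both values come from the library with the high astrocyte and oligodendrocyte marker sums, and the source of either value was not tested.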

How the results depend on the processing

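No paired analysis was possible because the labels give no replicate numbers shared by the groups. The 5 calls held with RLE and upper-quartile factors, a CPM filter and the length correction. Regulators called higher numbered 7 by DESeq2, 8 by limma-voom, 0 with the Schwann cell or the macrophage score as covariate, and 4 to 6 with 1 library left out. With the Schwann cell score Sox10, Egr2 and Pou3f1 had log2 fold changes of -0.3202, -0.5116 and -0.4551; the cause was not tested. Without normal replicate 4 Pax3 was at -0.7586 log2. It was at 2.092 by limma-voom with sample weights and 1.226 without normal replicate 6, and the likeness of Sox2 to Sox10 was 0.592 without that library. Sox10 missed the threshold with no filter (edgeR adjusted p = 0.0701). Over all genes, 2226 were higher and 2027 lower by DESeq2, and 2864 and 2701 by limma-voom. They numbered 0 and 0 with the Schwann cell score and 53 and 51 with the macrophage score, and 902 were lower with no filter. With 1 library left out, 1092 (without tumour replicate 4) to 2544 were higher and 801 (without the same library) to 2487 (without normal replicate 6) were lower. The class difference shifted by -0.1754 to 0.2199 log2 with 1 library left out, by 0.18 with medians and by -0.0567 with a prior count of 0.5, all within the spread of normal libraries. No regulator had a mean below 1 CPM, so leaving out such genes removed none. Pax3 had a mean under 2 CPM in both groups, and its 95% interval spans folds of 0.187 to 2.61.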
